A study of Mus musculus with 8 samples.

Results

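Phosphate transport, klotho and vitamin D genes were followed in GFP-positive cells sorted from kidneys of FSP1-GFP mice. The 10 genes were Slc34a1, Slc34a3, Slc20a1, Slc20a2, Slc17a1, Slc17a3, Kl, Cyp27b1, Cyp24a1 and Vdr, and all 10 were among the 18193 genes measured by a probe set with a single gene symbol. They were chosen by name, with earlier results of the same comparison known, so their differences between groups are a description and support nothing by themselves. Each gene was represented by the probe set selected on its highest mean level over the 8 arrays, a choice that does not use the groups.

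The mice carried the FSP1-eGFP transgene, in which the FSP1 (S100a4) promoter drives GFP, on a C57BL/6 background, and were 6 months old. For the Ischemic group (5 samples) the left renal artery and vein were clamped for 45 minutes and cells were taken on day 3, and the Normal group was 3 control kidneys, which the labels also call sham. Buprenorphine at 0.05 mg/kg was given for pain after surgery, per the labels. Whether the Normal kidneys came from operated mice that also received it is not settled by the labels. All mice in both groups were sorted for the same reporter, which is often used to mark fibroblasts but can be active in other cells. Expression was measured on Affymetrix mouse arrays, 1 for each sample, and values are log2(intensity + 16) after quantile normalization, on which an intensity of 1 reads 4.09.

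As background, the kidney reclaims filtered phosphate in the proximal tubule through sodium-coupled cotransporters of the brush border. Bone-derived FGF23, acting with its co-receptor klotho, and parathyroid hormone lower that reuptake. The proximal tubule is also the main site where vitamin D is activated to calcitriol by Cyp27b1, while Cyp24a1 breaks calcitriol down and Vdr is the receptor that carries out its effects on transcription.

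S100a4 read 11.30 to 11.94 on the Normal and 11.52 to 12.23 on the Ischemic arrays. Of 11 fibroblast markers, 7 were at least as bright as the median gene, as were 12 of 12 macrophage markers and 18 of 19 measured proximal tubule markers. Brightness differs between probe sets for other reasons than abundance, so these counts do not rank the cell types. None of these marker genes was listed at an intensity of 0, and 6 of the fibroblast and 6 of the proximal tubule markers fell below 10 on at least 1 array. Across genes, Ischemic 1 was the array least like the others (median of its pairwise correlations 0.752), where the remaining 7 had medians of 0.850 to 0.913. The labels give all mice as male, but Xist, the RNA that coats an inactive X, read 9.39 to 11.19 on 3 arrays (Ischemic 1, Ischemic 2 and Normal 1) and 4.49 to 4.96 on the other 5. The Y-linked gene Eif2s3y read 5.84 on Ischemic 1 and on Normal 1, but 7.78 on Ischemic 2, beside 7.68 to 8.87 on the other 5. Kdm5d and Uty, also Y-linked, were likewise lowest on Ischemic 1 and Normal 1 and not on Ischemic 2. The 3 arrays with high Xist signal were thus not alike, though they are left out together. Xist and these Y-linked genes were named outside the rule given below. Values without the 3 arrays with high Xist signal are given below for the median of the 10 genes and for some genes, Slc34a1, Kl, Cyp24a1 and Vdr included. They are not given for Slc17a1 or Slc17a3.

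In all 10 genes the mean was lower in the Ischemic group, and in 4 of them, Slc34a1, Slc17a1, Slc17a3 and Kl, every Ischemic array lay below every Normal array. Across all genes 3.42% had groups apart in this direction and 1.89% in the other. No member passed limma with Benjamini-Hochberg adjustment over all genes at 0.05, nor did any other gene (0% called). At an unadjusted p under 0.05, 7 of the 10 members were lower, where 5.01% of all genes were lower and 2.11% higher, 1295 genes in all. Since the members were picked with these results known, nothing is read from those shares. The median difference of the 10 was −1.87, beside 0.041 over all genes, and it was −1.08 without Normal 1 and −1.21 without the 3 arrays with high Xist signal. The plot of the 10 genes on each array shows that the differences ranged from several log2 units to near 0.

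**Figure D1:**
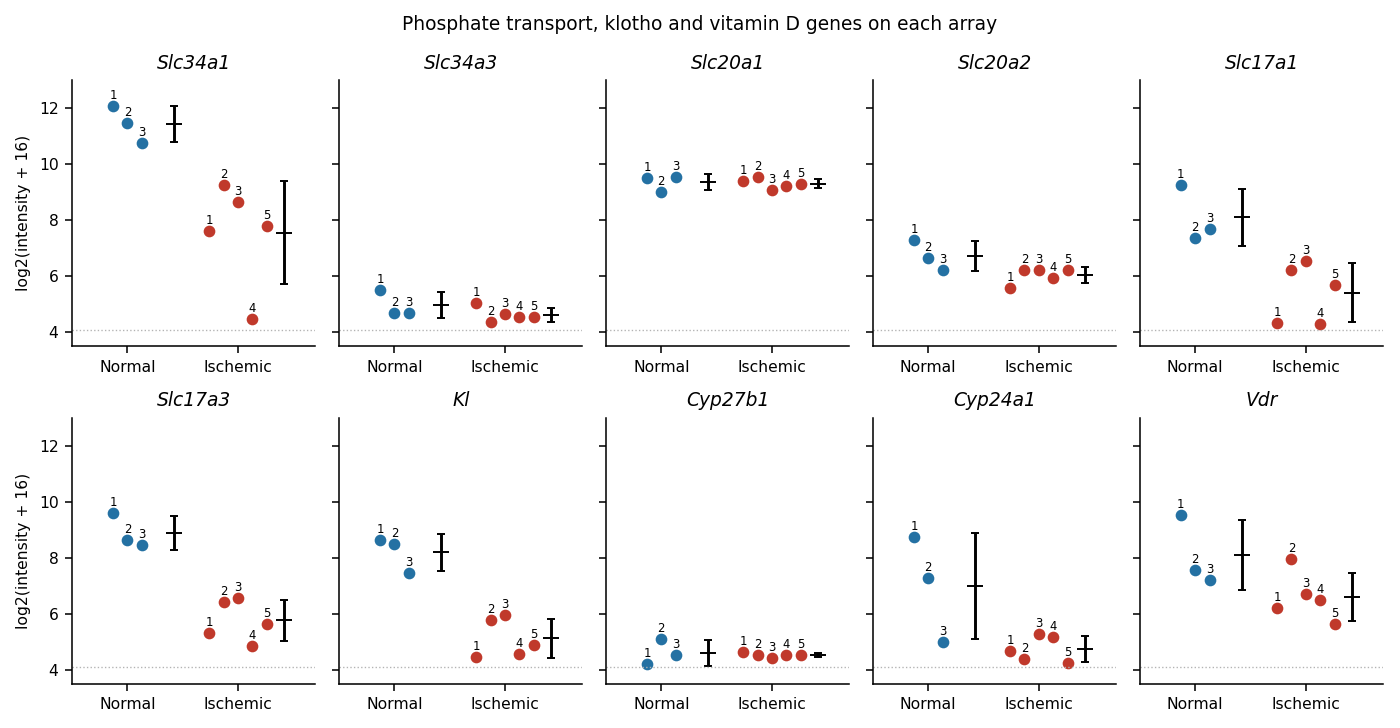
Level of each of the 10 genes on each array, as log2(intensity + 16) after quantile normalization, with the array's replicate number above its point and the group mean with its SD (n = 3 Normal, n = 5 Ischemic) to the right. The dotted line at 4.09 is an intensity of 1. Slc34a1, Slc17a1, Slc17a3 and Kl had no overlap between groups, while Slc20a1 lay between 9.02 and 9.56 on all 8 arrays.

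Promoters are shown for 4 genes whose groups did not overlap and for Slc20a1, the bright gene that differed by −0.060, so that the upstream sequence can be read beside the values. They come from the RefSeq promoter table of GRCm38.p6, in which 8 of the 10 members had an entry, and each is the 250 bases before an annotated start, 5′ to 3′. Capitals mark matches, on either strand, to GTTAAT (a half-site of the HNF1 factors), AGGTCA (a half-site bound by nuclear receptors, the vitamin D receptor among them) or TATAAA (the TATA box).

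The Slc34a1 window lies at chr13:55399398-55399647 on the plus strand.
Slc34a1: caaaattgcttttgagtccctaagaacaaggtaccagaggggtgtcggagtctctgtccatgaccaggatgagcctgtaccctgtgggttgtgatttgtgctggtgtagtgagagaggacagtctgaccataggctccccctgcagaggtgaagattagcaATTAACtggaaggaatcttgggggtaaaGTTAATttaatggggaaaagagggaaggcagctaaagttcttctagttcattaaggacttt
The Slc17a3 window lies at chr13:23839184-23839433 on the plus strand.
Slc17a3: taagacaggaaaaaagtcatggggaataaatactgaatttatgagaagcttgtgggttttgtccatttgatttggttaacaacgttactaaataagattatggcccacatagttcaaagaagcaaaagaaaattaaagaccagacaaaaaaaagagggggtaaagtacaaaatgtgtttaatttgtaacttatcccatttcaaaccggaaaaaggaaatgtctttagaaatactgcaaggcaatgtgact
The Slc17a1 window, the first of its 2 annotated starts, lies at chr13:23868768-23869017 on the plus strand.
Slc17a1: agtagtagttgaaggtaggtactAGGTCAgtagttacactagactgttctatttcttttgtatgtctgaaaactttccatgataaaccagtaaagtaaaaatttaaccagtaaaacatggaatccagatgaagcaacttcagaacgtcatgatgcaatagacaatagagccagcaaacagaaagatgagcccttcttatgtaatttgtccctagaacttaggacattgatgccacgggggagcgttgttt
The Kl window lies at chr5:150952357-150952606 on the plus strand.
Kl: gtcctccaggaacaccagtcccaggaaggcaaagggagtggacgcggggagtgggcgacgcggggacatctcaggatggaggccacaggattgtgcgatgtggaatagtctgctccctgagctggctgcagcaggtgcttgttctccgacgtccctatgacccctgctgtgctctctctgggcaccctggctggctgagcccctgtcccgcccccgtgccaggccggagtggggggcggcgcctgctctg
The Slc20a1 window, the first of its 2 annotated starts, lies at chr2:129198523-129198772 on the plus strand.
Slc20a1: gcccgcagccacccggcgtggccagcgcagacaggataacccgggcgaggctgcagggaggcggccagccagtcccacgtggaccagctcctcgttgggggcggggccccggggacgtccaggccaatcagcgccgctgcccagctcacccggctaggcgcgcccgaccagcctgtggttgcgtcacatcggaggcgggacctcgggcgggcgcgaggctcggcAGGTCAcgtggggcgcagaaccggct

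The Slc34a1 window held GTTAAT on both strands, beginning 89 and 61 bases before the start, and it was the only 1 of the 8 genes with that motif, which 6.43% of all windows of this length hold. AGGTCA was found for 3 genes (Slc34a3, Slc20a1 and Slc17a1) and in 14% of all windows. TATAAA was found for 0 of the 8 genes, and 12.4% of all windows hold it. The windows of Slc17a3 and Slc17a1 had a GC content of 32.8% and 38%, those of Kl and Slc20a1 66.8% and 75.2%, beside a median of 52.4% over all windows. These matches are a description of the letters and not of binding.

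Slc34a1 encodes NaPi-IIa, the main phosphate cotransporter of the proximal tubule brush border. Its deposited intensities were 4377, 3048 and 1753 on Normal 1 to 3, and 141, 553, 390, 5.55 and 217 on Ischemic 1 to 5. On the log2 scale the level was 11.44 ± 0.65 (SD, n = 3) in Normal and 7.56 ± 1.84 (SD, n = 5) in Ischemic arrays. The groups were well apart, and Ischemic 4, close to the lowest values of the array, widened the spread of its group. The difference was −3.88 ± 0.97 (SE), which limma did not call (adjusted p = 0.225). It was −3.13 without Ischemic 4 and −4.13 without the 3 arrays with high Xist signal. The related cotransporter gene Slc34a3 (NaPi-IIc) was dim, with intensities of 4.17 to 28.95 over the 8 arrays, and a difference of −0.34 ± 0.27 with overlapping groups says little at that brightness, and was −0.068 without Normal 1.

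Slc17a1 and Slc17a3 encode the transporters NPT1 and NPT4, first described as phosphate transporters and known to carry urate and other organic anions. Slc17a3 read 9.58, 8.63 and 8.46 on Normal 1 to 3 and 5.32, 6.41, 6.58, 4.86 and 5.63 on Ischemic 1 to 5. The lowest Normal array lay well above the highest Ischemic array, and the difference was −3.13 ± 0.46 (SE; adjusted p = 0.124 by limma). Slc17a1 read 9.25, 7.35 and 7.70 on Normal 1 to 3 and 4.31, 6.22, 6.53, 4.28 and 5.69 on Ischemic 1 to 5. Its difference was −2.69 ± 0.66 (adjusted p = 0.224 by limma), with Normal 1 the highest array and Ischemic 4 and Ischemic 1 the lowest. Both genes had their lowest value on Ischemic 4 and their highest on Normal 1. Slc17a3 was called with arrays centred on ribosomal protein genes (adjusted p = 0.0203), with limma's intensity trend (adjusted p = 0.0426) and among genes above the 40th percentile of level (adjusted p = 0.0425). Over all genes tested, 0.852%, 0.17% and 0.137% were called in those fits. Slc17a2, Slc17a3 and Slc17a1 follow one another on mouse chromosome 13. Slc17a2, named after its value was seen, was dim at 4.86 ± 0.76 (SD, n = 3) in Normal and 4.59 ± 0.36 (SD, n = 5) in Ischemic arrays, with overlapping groups.

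The type III cotransporters PiT-1 (Slc20a1) and PiT-2 (Slc20a2), of which the first is found in most tissues, differed less. Slc20a1 read 9.51, 9.02 and 9.56 on Normal 1 to 3 and 9.38, 9.53, 9.09, 9.21 and 9.29 on Ischemic 1 to 5. Its groups overlapped almost fully, and its difference was −0.060 ± 0.22 (SE; adjusted p = 0.976 by limma). The direction of Slc20a1 was not settled, since its other probe sets read 0.37 ± 0.47 and 0.59 ± 0.32, and its difference was 0.014 without Normal 1 and 0.040 without Normal 3. Slc20a2 ran from 6.21 to 7.28 on Normal and from 5.57 to 6.24 on Ischemic arrays, a difference of −0.68 ± 0.30 (adjusted p = 0.699 by limma) with the groups touching at Normal 3, and −0.40 without Normal 1. Its other probe set read 0.44 ± 0.53, the opposite direction, so Slc20a2 has no settled direction either.

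Kl encodes klotho, the membrane protein that lets FGF receptors bind FGF23, known from the proximal and, above all, the distal convoluted tubule. Its deposited intensities were 388, 397 and 175 on Normal 1 to 3, and 8.78, 35.32, 45.51, 6.75 and 13.58 on Ischemic 1 to 5. All Ischemic arrays were dim and all Normal arrays were clearly brighter. The level was 8.19 ± 0.66 (SD, n = 3) in Normal and 5.12 ± 0.70 (SD, n = 5) in Ischemic arrays, a difference of −3.06 ± 0.45 (SE; adjusted p = 0.124 by limma). Kl was called without Normal 3 (−3.43, adjusted p = 0.0403), with arrays centred on ribosomal protein genes (adjusted p = 0.0203) and among genes above the 40th percentile of level (adjusted p = 0.0425). That level filter uses the mean over all 8 arrays, which the Normal arrays raised for Kl, so the call under it is no support. Without Normal 3, 0.616% of all genes were called. Kl read −2.94 without the 3 arrays with high Xist signal and −2.02 with a pseudocount of 64. The other Kl probe set disagreed, at −0.28 ± 0.66, with Ischemic 1 its brightest array at 7.17, so that the mean of both probe sets gave −1.67.

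Cyp24a1, whose enzyme inactivates calcitriol and whose gene is a well known target of the vitamin D receptor, varied most among the Normal kidneys. It read 8.74, 7.27 and 4.98 on Normal 1 to 3 and 4.68, 4.36, 5.27, 5.16 and 4.25 on Ischemic 1 to 5. Normal 3 lay within the Ischemic range, while Normal 1 and Normal 2 were far above it. The difference was −2.26 ± 0.73 (SE; adjusted p = 0.435 by limma), and without Normal 3 it was −3.25 and was called (adjusted p = 0.0432). It was −1.38 without Normal 1 and −1.28 without the 3 arrays with high Xist signal, and the other probe set gave −1.84 ± 0.60. Vdr read 9.51, 7.54 and 7.20 on Normal 1 to 3 and 6.18, 7.96, 6.71, 6.50 and 5.62 on Ischemic 1 to 5. Ischemic 2 lay above Normal 2 and Normal 3, and the difference was −1.49 ± 0.64 (adjusted p = 0.697 by limma), or −0.77 without Normal 1, −1.14 without the 3 arrays with high Xist signal and −2.42 on those 3 alone. On the other Vdr probe set the groups did not overlap, at −1.69 ± 0.49 (adjusted p = 0.439 by limma over all probe sets). Cyp27b1, the activating enzyme, had intensities of 2.28 to 16.21 on all 8 arrays, near the lowest the arrays give, and at a difference of −0.078 ± 0.24 a change was not detectable. The plot of probe sets sets these readings side by side.

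**Figure D2:**
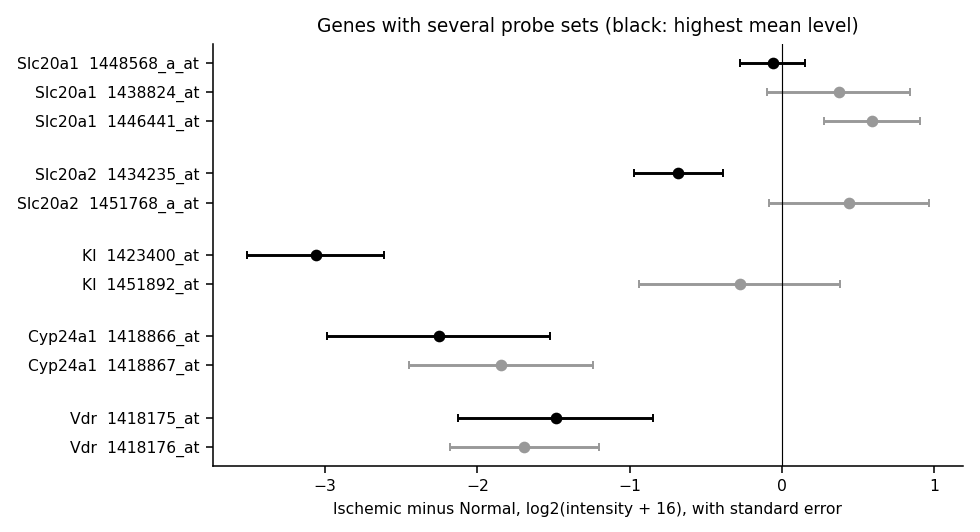
Difference between groups (Ischemic minus Normal, on the log2(intensity + 16) scale) with its standard error for the 5 genes with several probe sets, black for the probe set of highest mean level and grey for the others. The probe sets of Cyp24a1 and Vdr were alike in direction, those of Slc20a1 and Slc20a2 were not, and the other Kl probe set read −0.28.

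Proximal tubule markers moved with these genes. The 19 measured markers, none of them a member, all had a lower mean in the Ischemic group, 16 with groups apart, with a median of −3.08. Their mean per array ran from 6.20 to 7.92 on Ischemic and from 9.16 to 10.67 on Normal arrays. The 8 measured markers of the loop and distal tubule ran from 6.48 to 7.49 and from 8.84 to 9.44 in the same way. In such a bulk measurement, fewer tubule cells among the sorted cells and less RNA per cell cannot be told apart. Macrophage markers were higher in mean in 12 of 12, or 11 of 12 under either centring of the arrays (their median, or their ribosomal protein genes), with a mean per array of 9.22 to 10.34 on Ischemic and 8.78 to 9.18 on Normal arrays, while 11 fibroblast markers had means of 6.31 to 7.90 and 6.16 to 6.97. The part of these markers in the result was not tested.

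Each gene was also set against the mean of the 19 proximal tubule markers on its own array. Slc17a1, Slc17a3 and Kl then differed between the groups by 0.10, −0.34 and −0.27, with overlapping groups, so that relative to the proximal tubule markers the groups were not separate. On Ischemic 1 and Ischemic 4, Kl (intensities 8.78 and 6.75) and Slc17a1 (5.48 and 3.21) were near the lowest values, where a further fall cannot show. Their nearness to the markers is limited by this. Slc34a1 was lower relative to the mean of the markers, by −1.09, with every Ischemic array below every Normal array, and by −0.56 without Ischemic 4. The groups were narrowly apart, at −0.16 on Ischemic 2 and −0.088 on Normal 1 when set against the Normal mean. Single markers differed by −0.51 (Aqp1) to −3.81 (Slc22a6), the last close to the −3.88 of Slc34a1 itself. Vdr differed by 1.31 and Cyp24a1 by 0.54 relative to the markers, with overlapping groups. Slc20a1 differed by 2.73, with groups apart, since its own level hardly differed. Against the mean of the loop and distal tubule markers, Slc34a1 differed by −1.70 and Slc17a3 by −0.95, both with every Ischemic array below every Normal array. On that second scale Kl differed by −0.88, Slc17a1 by −0.51, Cyp24a1 by −0.071 and Vdr by 0.70, with overlapping groups. The Ischemic values of Slc34a3, Slc20a1, Slc20a2 and Cyp27b1 all lay above the Normal ones on it. Slc34a3 (2.45), Slc20a2 (2.11) and Cyp27b1 (2.72) were also apart in this direction against the proximal tubule markers. Slc34a3 and Cyp27b1 were dim on every array, so their relative values mostly repeat the lower marker means. The plot against the proximal tubule markers shows the arrays one by one.

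**Figure D3:**
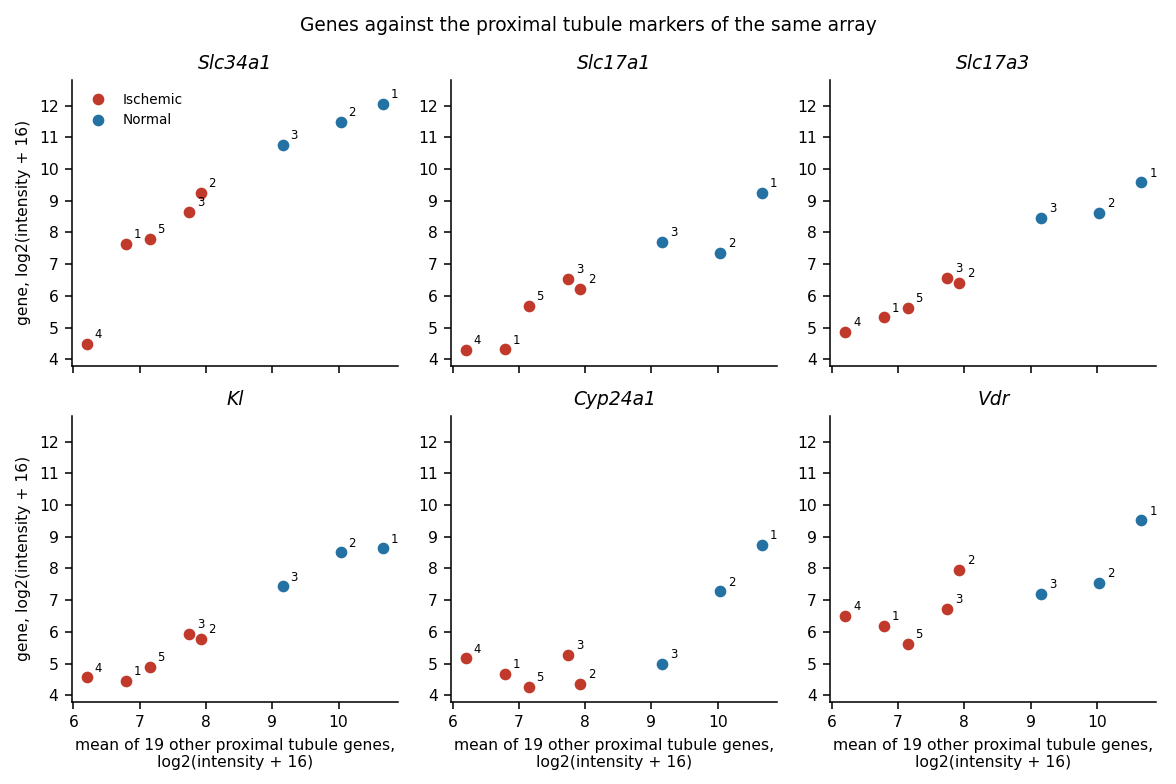
Level of 6 of the genes (vertical axis) against the mean of 19 other proximal tubule genes on the same array (horizontal axis), both as log2(intensity + 16), with replicate numbers beside the points. In Slc34a1, Slc17a1, Slc17a3 and Kl the Ischemic arrays lie at the lower left and the Normal arrays at the upper right, while Cyp24a1 on Normal 3 lies at 4.98, within the Ischemic range.

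Profiles over the 8 arrays were compared by the root mean square difference after each gene was centred on its own mean, among 9090 other genes no dimmer than the median gene in mean over the 8 arrays. The closest to Slc34a1 were Kap (0.36), Ldhd (0.58), Keg1 (0.60), Sgk2 (0.61) and Slc22a6 (0.69), of which Kap encodes a kidney androgen-regulated protein of the proximal tubule and Slc22a6 an organic anion transporter. The closest to Kl were Rida (0.27), Ugt3a2 (0.29), Them7 (0.30), Abca13 (0.32) and Gas2 (0.33). Them7, Abca13 and Gas2 had Ischemic means of 5.26, 5.05 and 5.19, below the median level of 5.93, and passed the level rule through their Normal arrays. A large group difference weighs most in this measure, so the closest genes largely share it by construction. Among the members themselves Slc17a3 and Kl were closest, at 0.29, and Slc17a1 and Slc17a3 followed among the 4 without overlap, at 0.45. These likenesses describe 8 arrays and were not tested.

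Among 13 other measured genes of phosphate handling, 8 had a lower and 5 a higher mean in the Ischemic group, 0 passed limma over all genes, and the median difference was −0.27. In 2 the groups did not overlap, and these are named after their values were seen. Pdzk1, a scaffold that binds NaPi-IIa in the brush border, read 8.42 to 11.09 on Normal and 4.98 to 7.19 on Ischemic arrays, a difference of −3.41 ± 0.71 (SE; adjusted p = 0.159 by limma). Pth1r, the receptor of parathyroid hormone, read 6.50 to 8.59 and 4.48 to 5.11, a difference of −2.40 ± 0.48 (adjusted p = 0.150 by limma). The brightest genes of the list, the scaffolds Slc9a3r2 and Slc9a3r1 (NHERF1), differed by −0.92 ± 0.68 and −0.63 ± 0.36 with overlapping groups. With arrays centred on ribosomal protein genes 2 of the 13 passed, where 0.852% of all genes did, and 9 were lower and 4 higher.

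The 10 measured genes of FGF23 signalling were split, 4 lower and 6 higher in mean, with 0 called by limma, no gene free of overlap between groups, and a median difference of 0.14, or −0.018 without Ischemic 4. Of these 10, 6 fell below an intensity of 10 on at least 1 array, so the split and the median rest partly on dim genes. Fgf23 itself, a hormone made mainly in bone, read 4.09 to 4.48 over both groups, near the lowest values of the arrays. Egr1, an immediate early gene used as a readout of FGF23 signalling, differed by −0.24 ± 0.34 (SE) and Fgfr1, the receptor that pairs with klotho, by 0.30 ± 0.49, or −0.083 without Ischemic 1. The 4 FGF receptors lay between −0.84 and 0.30, so klotho's low Ischemic values stood beside overlapping groups in each of its receptor partners.

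Among 12 measured genes of vitamin D uptake, metabolism and receptor partners, 7 were lower and 5 higher in mean, with 0 past the threshold and a median of −0.050, whose sign turned without Ischemic 1 (0.017) or Normal 1 (0.0039). The 4 with groups apart, named after their values were seen, were Lrp2 at −3.87 ± 0.71 (SE), Cubn at −3.09 ± 0.64, Amn at −1.81 ± 0.36 and Fdx1 at −1.24 ± 0.31, with adjusted p from 0.140 to 0.238 by limma. Lrp2 (megalin), Cubn (cubilin) and Amn (amnionless) form the endocytic complex that recovers vitamin D bound to its carrier protein, and Fdx1 (ferredoxin) passes electrons to mitochondrial cytochromes such as Cyp27b1. Dab2, an adaptor of megalin that macrophages also express and the brightest of the list, differed by 0.26 ± 0.28, a direction that flipped to −0.051 with arrays centred on ribosomal protein genes. Under that centring 3 of the 12 passed, against the same 0.852% of all genes, and 9 were lower and 3 higher. The receptor partners of Vdr overlapped between the groups.

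Of 10 measured calcium transport genes, some of which calcitriol regulates, 8 were lower and 2 higher in mean, with 0 past the threshold and a median of −0.63, or −0.39 without Normal 1. Calb1 and S100g, which encode the calcium-binding calbindins, differed by −2.26 ± 0.56 (SE) and −2.17 ± 0.55, each with groups apart. Trpv6, a calcium channel, was also apart at −0.63 ± 0.27 but read at most 5.48, close to the lowest values, and its difference was −0.34 without Normal 1. Atp2b1, a widely expressed calcium pump, differed by 0.35 ± 0.28 with overlapping groups. Calb1 and Trpv6 were named after their values were seen.

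**Figure D4:**
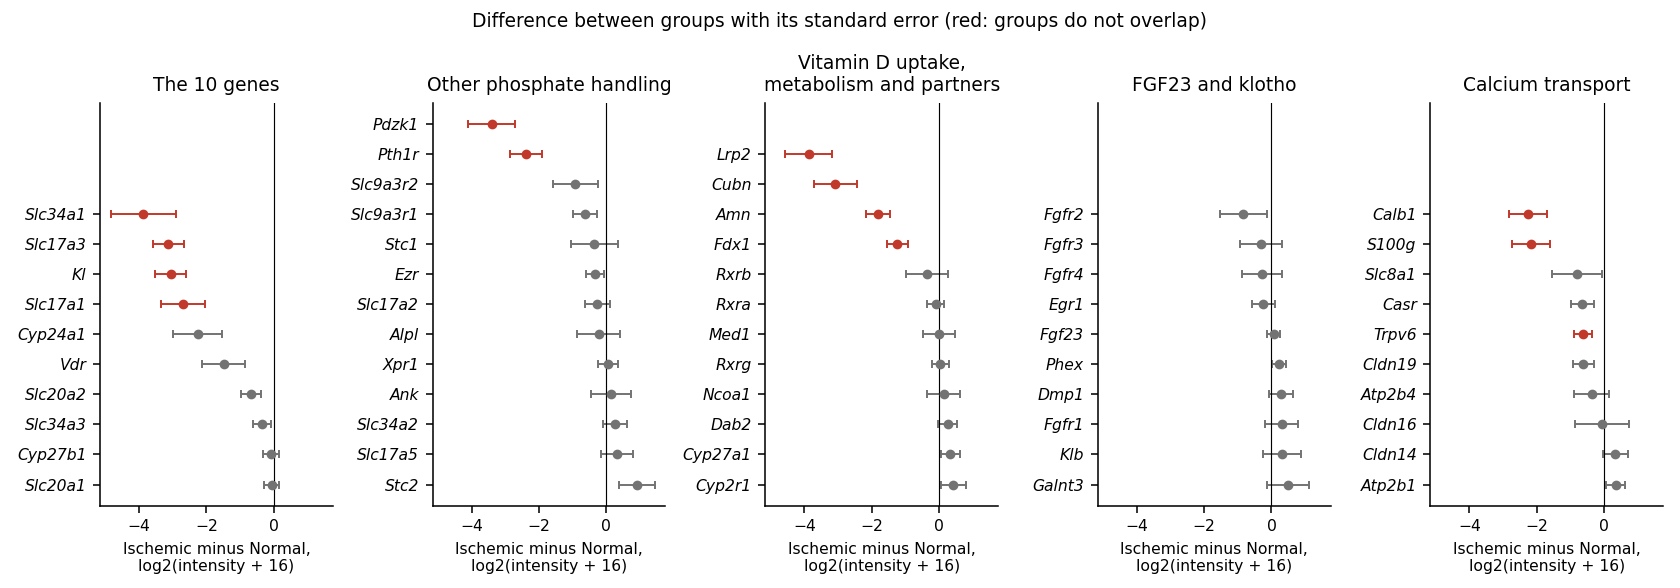
Difference between groups (Ischemic minus Normal, log2(intensity + 16)) with its standard error for the 10 genes and for the measured genes of 4 related lists, red where the groups do not overlap. Red points are 4 of the 10 genes, 2 of 13, 4 of 12, 0 of 10 and 3 of 10 in the lists from left to right, and none passed limma over all genes.

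The scaling of the arrays moved the balance of all genes but not the direction of Slc34a1, Slc17a1, Slc17a3 or Kl. Of genes at an unadjusted p under 0.05, 383 were higher and 912 lower with quantile normalization, and 137 higher and 1450 lower with arrays centred on ribosomal protein genes, where the median of all genes was −0.089. Under this ribosomal centring Slc34a1 read −4.10, Slc17a3 −3.37, Kl −3.27 and Slc17a1 −2.88, and 6 of the 10 genes had groups apart (all lower), where 6.08% of all genes did. With arrays centred on the median, 233 genes were higher and 1006 lower, and those 4 genes read −3.99, −3.26, −3.16 and −2.78. The plot of settings shows that 6 of the 10 genes lay at −0.77 or lower under every setting whose fit held the gene. Kl, Slc17a1 and Cyp24a1 were not in the fit above the 60th percentile of level. No setting used the other Kl probe set alone, which read −0.28.

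**Figure D5:**
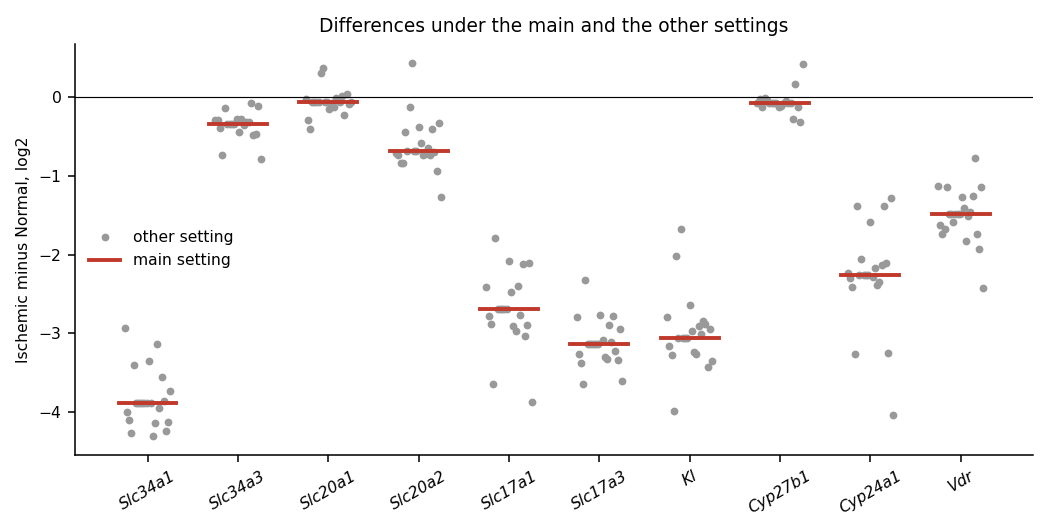
Difference between groups (Ischemic minus Normal, log2) for each of the 10 genes under the main setting (red line) and under the other settings (grey points), which include other scalings, pseudocounts, probe set rules and arrays left out. Slc34a1 ran from −4.30 to −2.93, while Slc20a1, Slc20a2 and Cyp27b1 had values on both sides of 0.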

How the data were processed

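Total RNA from sorted cells was amplified with a NuGEN WT-Ovation Pico kit and biotinylated as cDNA, per the labels' protocols. The authors deposited 1 linear intensity for each of 45101 probe sets and array, and the software that summarised the probes is not given in the sources used here. Before normalization the arrays' medians spanned 0.30 on the log2 scale, so the scale of the deposited values was already similar. The number of arrays limits the precision, since intensities carry no read depth.

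Intensities were turned into log2(intensity + 16) and quantile normalized. Gene names came from the platform table, in which 34945 probe sets had 1 symbol and 932 several, while 9160 were unnamed here and 64 were controls. A gene was its probe set of highest mean over the 8 arrays. The 5 Ischemic and 3 Normal arrays, grouped by title, were compared with limma 3.58.1 in R 4.3.3 (lmFit, eBayes), with Benjamini-Hochberg adjustment over 18193 genes and a threshold of 0.05. The script was tested on simulated data. Each array is a separate labelled sample, but whether each came from a separate mouse is stated only through the count of operated mice. The p-values set a group difference against the spread between these samples. They take the arrays as independent, which is not settled for the mice.

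The members and lists were chosen with earlier results of these data known. Named were all 10 members, the brightest genes of each related list, the 5 profiles closest to Slc34a1 and to Kl, and S100a4. Genes named outside this rule are marked in the text. Deviations from the group mean correlated at 0.16, −0.088 and 0.10 between same-numbered arrays. These values cannot settle whether the numbers pair arrays, and the reported fit treated the arrays as unpaired. Alternatives covered scaling, pseudocount, level filter, probe set rule, variance model, replicate block and arrays left out. The subsets by Xist signal were added after seeing the data.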

Additional observations from a re-analysis of the deposited data

Results flagged for a closer look

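Of 51 gene and list values tested in the 5 Ischemic arrays for a sample far from the others, 2 stood out, and chance alone flags about 1 in 20 such groups. Cubn, the cubilin gene, read 5.79 on Ischemic 3, where the nearest other Ischemic array read 4.94 and the lowest 4.68. The mean of the 12 genes of vitamin D metabolism and receptor partners was 6.32 on Ischemic 1, where the nearest other Ischemic array read 6.95 and the highest 7.21.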

How the results depend on the processing

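Over 212 values of the 10 genes under alternatives, 198 kept direction and side of the threshold, 7 passed it newly and 7 reversed. No gene could lose it, since 0 had passed in the reported fit. Many of the values could not change direction. The trend and robust variance models and the level filters keep the reported differences, and genes with 1 probe set keep theirs under the probe set rules. A gene that stayed uncalled also counted as kept. The count of the 10 genes called was 0 in the reported fit, 2 with arrays centred on ribosomal protein genes (0.852% of all genes called), 2 among genes above the 40th percentile of level (0.137%), 1 with limma's intensity trend (0.17%), and 0 to 2 with 1 array left out, the 2 being Kl and Cyp24a1 without Normal 3 (0.616%). Kl was among the 2 above the 40th percentile, a filter it passed through its Normal arrays. The count with groups apart was 4 (5.3% of all genes, either direction), 2 of 4 genes left in the fit above the 60th percentile of level (6.34%), 5 with the mean of probe sets (5.36%), 4 to 6 with 1 array left out (6 without Normal 3, 14.1%) and 6 on the 5 low-Xist arrays (20.8%). It was 9 on the 3 arrays with high Xist signal, where 2 Ischemic arrays face 1 Normal array and 67.7% of all genes are apart, so nothing is read from it. With the replicate block, 0 were called, Slc34a1 was −2.93, Slc17a3 −2.78 and Kl −2.80. Reversed were Slc20a1 (0.30 with the mean of probe sets, 0.37 with the probe set of largest spread, −0.23 to 0.040 with 1 array left out), Slc20a2 (0.44 with the probe set of largest spread) and Cyp27b1 (0.42 on the 3 high-Xist arrays, −0.28 to 0.17 with 1 left out). Among other named genes, Dab2 read −0.051 with ribosomal centring and −0.22 on the 3 high-Xist arrays, Egr1 0.22 on those 3, Fgfr1 −0.083 to 0.47 with 1 left out, and Slc17a2 0.17 on the 5 low-Xist arrays and −0.60 to 0.15 with 1 left out. The cause was not tested. Signal near the lowest intensities limits Slc34a3, Cyp27b1 and the Ischemic values of Kl and Cyp24a1. It also limits Slc17a1, with intensities of 5.48 on Ischemic 1 and 3.21 on Ischemic 4. Slc17a1 differed by −3.65 with a pseudocount of 1 and −1.79 with 64.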
